A study of Mus musculus with 6 samples.

Results

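The 10 genes described here encode subunits of the mouse SWI/SNF (BAF) chromatin remodelling complex: *Smarcd3*, *Smarcd1*, *Smarcd2*, *Smarca2*, *Smarca4*, *Smarcb1*, *Smarcc1*, *Smarcc2*, *Smarce1* and *Arid1a*. They were taken by Ensembl identifier from a table of 16976 identifiers, and all 10 were present. *Smarcd3* was selected on its low counts in the injured against the uninjured libraries, seen in earlier work on this table, and the other 9 genes were added because they belong to the same complex. The contrast of injured and uninjured libraries was therefore known when the genes were chosen, so their values are given as a description, with intervals. Calls from a test run over all genes are listed for these genes too, but nothing is read from them. RNA that co-precipitated with LARP1, an RNA-binding protein, was measured in dorsal root ganglia (DRG), which lie along the spinal cord and house the cell bodies of sensory neurons. One group of 3 libraries came from wild-type mice labelled as having a sciatic nerve injury, and the other group of 3 libraries from wild-type mice labelled uninjured. The sex and age of the mice, the time after injury, the number of ganglia pooled and whether the libraries came from separate animals are not stated in the labels.

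SWI/SNF complexes use the energy of ATP to slide or evict nucleosomes and so open chromatin at promoters and enhancers. Each complex is built in part from alternatives: 1 of the ATPases SMARCA2 (BRM) and SMARCA4 (BRG1), and 1 of the BAF60 adaptors SMARCD1, SMARCD2 and SMARCD3 (BAF60A, B and C). SMARCC1 and SMARCC2 (BAF155, BAF170) are scaffold subunits and are not exclusive alternatives. The choice of subunits changes as neural progenitors become neurons, and SMARCD3 is best known for its role in heart and skeletal muscle development. LARP1 is known to bind the capped 5′ end of mRNAs that begin with a terminal oligopyrimidine (TOP) tract, a C followed by a run of pyrimidines.

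The RefSeq start sites of the subunit genes that differed most, and of the remaining BAF60 paralogs, are shown because the start of the mRNA is where LARP1 is known to bind TOP mRNAs. Each stretch holds 15 bases before and 15 bases after the annotated start, 5′ to 3′ on the strand of the gene. The capitals mark the first 5 transcribed bases. *Smarcd3* is at chr5:24601988-24602017 on the minus strand, *Smarcd1* at chr15:99702272-99702301 on the plus strand and *Smarcd2* at chr11:106267618-106267647 on the minus strand. *Smarca2* is at chr19:26605145-26605174 and *Smarcc1* at chr9:110132009-110132038, both on the plus strand, all in build GRCm38.p6.
Smarcd3: agggcagccctgaagGGGCCccctccccac
Smarcd1: ggagttccggttccgGTTCTttgtgcagct
Smarcd2: aggcgcctgttccccTTTGTtcctggtctc
Smarca2: attcataatctagtcCTCGCtccctctgtt
Smarcc1: ctaggaggaggaggaGGAGGtggcatctgc

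None of these starts had a C followed by 4 bases that were each C or T, read on the strand of the gene. The same held for all 10 start windows of the 9 subunit genes that had one in the RefSeq table, where *Smarce1* was not matched and *Arid1a* had 2 windows. Among all 32851 windows the share with this pattern at the start was 2.51%, and among 70 windows of genes with the symbols of cytosolic ribosomal proteins, which are known TOP genes, it was 18.6%. When the pattern could begin up to 3 bases to either side, it was found in 2 of the 10 subunit windows, those of *Smarcd3* and *Smarcd2*, in 11.5% of all windows and in 35.7% of the ribosomal protein windows. These are matches of letters around annotated starts, which need not be the cap sites used in DRG. In the 250 bases before the start, the G and C content of the subunit windows ranged from 56.4% for *Smarcd2* to 81.6% for 1 of the *Arid1a* windows, with a median of 69.6%, against 52.4% over all windows.

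The injured libraries held 211337 to 211879 counts and the uninjured libraries 116186 to 116608, and levels are given as CPM, the counts of a gene scaled to these totals. Libraries of the same group varied little beyond counting noise, with a variance of 1.12 times that noise among the injured and 1.16 times among the uninjured libraries, over genes counted at least 15 times in the group. For some of the subunit genes the variance was larger, at 2.71 times counting noise for *Smarcd2* and 2.53 times for *Smarcd1* among the injured libraries, and 1.81 times for *Smarca4* and 1.78 times for *Smarcd3* among the uninjured libraries, each a value from 3 libraries. The libraries of a group were therefore summed and counted as 1 sample, so no difference given here was checked across replicate samples, and a batch in which a whole group was prepared cannot be told apart from injury. Intervals are 95% exact (Poisson for a level, Clopper-Pearson for a ratio or a share). They cover counting error only, because they are formed from counts without a term for variation between libraries. Amplified reads need not be independent molecules, so even this error may be understated. No input RNA or control precipitate was analysed here, so a level is that in the LARP1 precipitate. A lower level cannot be told apart from less RNA in the tissue, less binding by LARP1, less RNA per cell or fewer cells of a type that carries the RNA.

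*Smarcd3* RNA had few counts in the injured precipitate and more in the uninjured one. *Smarcd3* (ENSMUSG00000028949) had 0, 5 and 3 counts in the injured libraries, against 26, 17 and 15 counts in the uninjured libraries. These correspond to 0, 23.7 and 14.2 CPM in the injured libraries and 223.7, 146 and 129 CPM in the uninjured libraries. Every injured library lay below every uninjured one, and the injured libraries were the deeper ones. *Smarcd3* was selected on this contrast, so the separation is no separate evidence. Summed by group, the level was 12.6 CPM in the injured precipitate (95% interval 5.44 to 24.8) and 166 CPM in the uninjured precipitate (126 to 215). The log2 ratio of injured over uninjured levels was -3.72, with an interval of -5.00 to -2.65. In linear terms the ratio of uninjured over injured levels was 13.2 (6.26 to 32.0). These intervals do not cover the selection of the gene, which can overstate the size of the difference. This size rested in part on single injured libraries with few counts: leaving out the first gave a ratio of uninjured over injured levels of 8.78, and leaving out the second gave 23.4.

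Both remaining BAF60 adaptor RNAs were counted in every library. *Smarcd1* (ENSMUSG00000023018), encoding BAF60A, had 30, 15 and 26 counts in the injured libraries and 8, 13 and 6 counts in the uninjured libraries. Its levels were 142, 71.0 and 123 CPM in the injured and 68.8, 111 and 51.6 CPM in the uninjured libraries, and these overlapped. The ratio of injured over uninjured summed levels was 1.45 (0.917 to 2.34). It was 1.71 (1.06 to 2.82) without the second injured and 1.86 (1.04 to 3.57) without the second uninjured library. Leaving out any other single library gave an interval that included 1. The lowest ratio was 1.24 (0.753 to 2.13), without the third uninjured library. *Smarcd2* (ENSMUSG00000078619), encoding BAF60B, had 9, 10 and 2 counts in the injured libraries and 6, 7 and 8 counts in the uninjured libraries. That is 42.5, 47.3 and 9.46 CPM in the injured libraries, all below the 51.6, 60.0 and 68.9 CPM of the uninjured libraries. Its ratio of injured over uninjured summed levels was 0.550, with an interval of 0.286 to 1.06 that included 1. The interval was 0.265 to 0.980 with TMM-scaled library sizes (TMM is edgeR's trimmed mean of M-values scaling). These sizes are full totals times factors from the genes passing edgeR's filter, and they shifted log2 ratios by -0.11. The sizes of edgeR's own fit gave a smaller shift, -0.07, at which no interval was computed. The interval was 0.188 to 0.937 when the second injured library was left out. The ratio was 0.746 without the third injured library, the one with 2 counts.

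**Figure D1:**
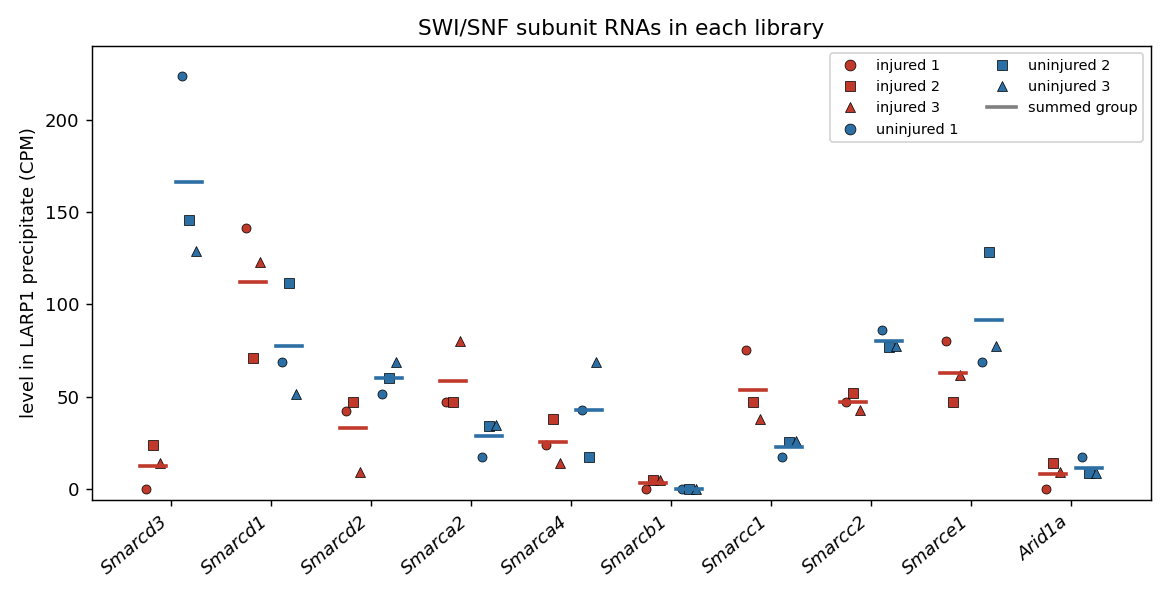
Level of each of the 10 subunit RNAs in the LARP1 precipitate, in CPM, with 1 point per library (red, injured; blue, uninjured; the marker shape gives the replicate number) and a line at the level of the summed group. *Smarcd3* spans 0 to 23.7 CPM in the injured and 129 to 223.7 CPM in the uninjured libraries, while the ranges of *Smarcd1*, *Smarca4* and *Smarce1* overlap between the groups.

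The makeup of the BAF60 counts differed between the groups. These shares do not depend on how the libraries are scaled, but they reuse the counts on which *Smarcd3* was selected and are no separate evidence. *Smarcd3* took 8 of the 100 counts of *Smarcd1*, *Smarcd2* and *Smarcd3* in the injured group, or 8% (95% Clopper-Pearson interval 3.52% to 15.2%). In the uninjured group it took 58 of 106 counts, or 54.7% (44.8% to 64.4%). By library the *Smarcd3* share was 0%, 16.7% and 9.68% in the injured libraries and 65.0%, 45.9% and 51.7% in the uninjured libraries, with no overlap. In the first injured library it was 0 of 39 counts, for which the exact interval reaches 9.03% and a floor of 3 counts corresponds to 7.69%. Leaving out the first injured library gave an injured share of 13.1%, and leaving out the second gave 4.29%. *Smarcd1* took 71.0% of the injured and 25.5% of the uninjured counts of the 3 genes, and *Smarcd2* took 21.0% of the injured and 19.8% of the uninjured ones. Together, the 3 genes had a summed level of 158 CPM (128 to 192) in the injured and 303.7 CPM (249 to 367) in the uninjured precipitate. *Smarcd3*, selected as low in the injured libraries, is part of that sum. Counts were not divided by transcript length, so these shares compare the groups and do not rank the paralogs. Salmon divides reads that fit several similar transcripts by estimation, and how far that affects these paralogs was not tested.

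Of the ATPase genes, *Smarca2* was at a higher and *Smarca4* at a lower level in the injured reads, on few counts and with intervals that included no difference. *Smarca2* (ENSMUSG00000024921), encoding BRM, had 10, 10 and 17 counts in the injured libraries and 2, 4 and 4 counts in the uninjured libraries. Its levels of 47.2, 47.3 and 80.4 CPM in the injured libraries all lay above the 17.2, 34.3 and 34.4 CPM of the uninjured libraries. The ratio of injured over uninjured summed levels was 2.03, and its interval of 0.992 to 4.59 just included 1. Without the first or the second injured library the interval began above 1, at 1.05 and 1.04. Leaving out any other single library gave an interval that included 1. The ratio was 1.65 (0.737 to 3.95) without the third injured library, the one with 17 counts, and 1.70 (0.778 to 4.22) without the first uninjured library. *Smarca4* (ENSMUSG00000032187), encoding BRG1, had 5, 8 and 3 counts in the injured libraries and 5, 2 and 8 counts in the uninjured libraries. The *Smarca4* levels, 23.6, 37.9 and 14.2 CPM in the injured libraries and 43.0, 17.2 and 68.9 CPM in the uninjured libraries, overlapped, and the ratio of 0.587 had an interval of 0.272 to 1.27. *Smarca2* held 69.8% of the ATPase counts in the injured group (37 of 53, interval 55.7% to 81.7%) and 40% in the uninjured group (10 of 25, 21.1% to 61.3%). These intervals overlap, and so did the libraries, whose *Smarca2* share was 66.7%, 55.6% and 85.0% in the injured and 28.6%, 66.7% and 33.3% in the uninjured group. The shares of the ATPase genes and of the scaffold genes below were computed after the counts had been seen.

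Of the scaffold genes, *Smarcc1* was at a higher and *Smarcc2* at a lower level in the injured reads. *Smarcc1* (ENSMUSG00000032481), encoding BAF155, had 16, 10 and 8 counts in the injured libraries and 2, 3 and 3 counts in the uninjured libraries. In CPM these were 75.5, 47.3 and 37.8 in the injured and 17.2, 25.7 and 25.8 in the uninjured libraries, so every injured library was above every uninjured one. Its ratio of injured over uninjured summed levels was 2.34 (1.06 to 5.84), the only subunit ratio above 1 whose interval excluded 1 on column totals. That interval rested on 8 uninjured counts, and was 0.983 to 5.41 with TMM-scaled library sizes, the scale with the larger TMM shift. It included 1 in 4 of the 6 settings that left out 1 library, namely the first injured library and each uninjured library. *Smarcc2* (ENSMUSG00000025369), encoding BAF170, had 10, 11 and 9 counts in the injured libraries and 10, 9 and 9 counts in the uninjured libraries. Because the uninjured libraries were shallower, its levels were 47.2, 52.0 and 42.6 CPM in the injured libraries, below the 86.0, 77.2 and 77.5 CPM of the uninjured libraries. The *Smarcc2* ratio was 0.589, with an interval of 0.340 to 1.02 on column totals and of 0.315 to 0.948 with TMM-scaled library sizes. *Smarcc1* held 53.1% of the scaffold counts in the injured group (34 of 64, interval 40.2% to 65.7%) and 22.2% in the uninjured group (8 of 36, 10.1% to 39.2%). Its share by library was 61.5%, 47.6% and 47.1% in the injured and 16.7%, 25% and 25% in the uninjured libraries.

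**Figure D2:**
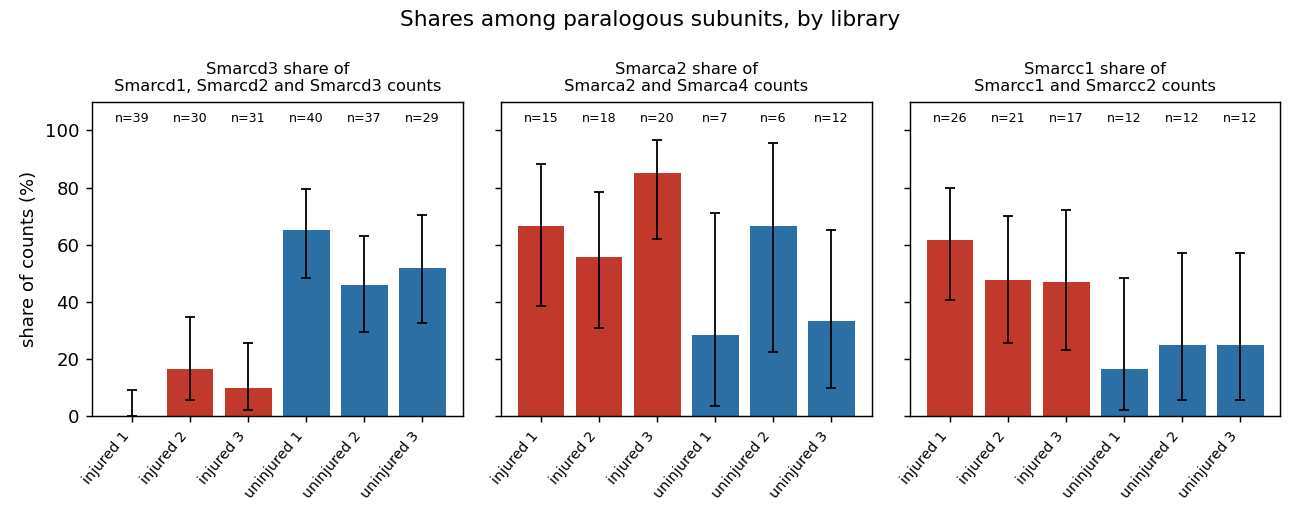
Share of counts (percent) that *Smarcd3* holds among the BAF60 adaptor genes (left), *Smarca2* among the ATPase genes (middle) and *Smarcc1* among the scaffold genes (right), by library, with injured in red and uninjured in blue. Bars carry 95% exact binomial intervals that cover counting error only, n is the number of counts shared out, and the first injured library has no *Smarcd3* bar because its share is 0%; the libraries of the groups separate in the left and right panels and overlap in the middle panel.

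The *Smarce1* libraries overlapped between the groups, and *Arid1a* and *Smarcb1* had too few counts to compare. *Smarce1* (ENSMUSG00000037935), encoding the DNA-binding subunit BAF57, had 17, 10 and 13 counts in the injured libraries and 8, 15 and 9 counts in the uninjured libraries. These gave 80.2, 47.3 and 61.5 CPM in the injured and 68.8, 129 and 77.5 CPM in the uninjured libraries, which overlapped, and a ratio of 0.687 (0.421 to 1.13). *Arid1a* (ENSMUSG00000007880), encoding the large subunit BAF250A that marks one class of BAF complexes, had 0, 3 and 2 counts in the injured libraries and 2, 1 and 1 counts in the uninjured libraries. At 7.88 CPM in the injured and 11.5 CPM in the uninjured group its ratio of 0.687 had an interval of 0.148 to 3.46, which allows a large difference in either direction. *Smarcb1* (ENSMUSG00000000902), encoding the core subunit BAF47 (INI1), had 0, 1 and 1 counts in the injured libraries and 0 in all uninjured libraries. Both groups were at or under the floor of 3 counts, 4.73 CPM in the injured and 8.60 CPM in the uninjured group, so no ratio was formed. A low count of *Smarcb1* or *Arid1a* in a precipitate of this depth does not show that the RNA was absent from the ganglia.

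**Figure D3:**
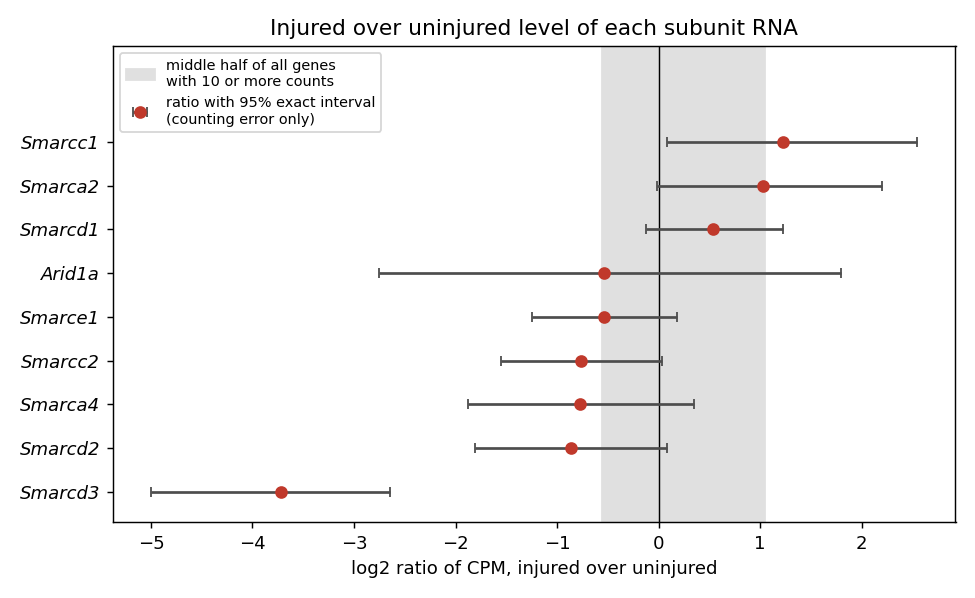
Log2 ratio of injured over uninjured CPM for the 9 subunit genes with a ratio (points), with 95% exact intervals from counting error only, ordered by ratio. The grey band runs from the lower to the upper quartile, -0.56 to 1.04, of all 8808 genes with at least 10 counts; the interval of *Smarcd3*, -5.00 to -2.65, lies wholly to the left of the band, and the intervals of the other 8 genes reach into it.

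Counts of the subunit genes past a limit are given beside the share of all genes past the same limit. Of the 10 genes, 8 had at least 10 counts over the 6 libraries, and *Smarcb1* and *Arid1a* did not. Among these 8, *Smarcc1* had an interval wholly above 1 and *Smarcd3* wholly below 1, where 24.5% and 15.4% of all 8808 such genes did. Libraries of the groups did not overlap for 2 genes that were higher in the injured group (*Smarca2* and *Smarcc1*; 28.4% of all genes) and for 3 that were lower (*Smarcd3*, *Smarcd2* and *Smarcc2*; 16.4% of all genes). Past 2-fold lay *Smarca2* and *Smarcc1* in the higher direction (27.4% of all genes) and for *Smarcd3* in the lower direction (14.5%). The median log2 ratio was -0.65 over the 8 subunit genes and 0.19 over all 8808. Only *Smarcd3*, *Smarcd1*, *Smarcc2* and *Smarce1* passed the filter on low counts of edgeR's quasi-likelihood test, which compares the reads of these 2 samples and not the conditions. Of these 4, *Smarcd3* was called lower at a Benjamini-Hochberg threshold of 0.05, as were 22.1% of the 3158 genes tested, and none was called higher, against 24.9% of the genes tested. Since the contrast was known when the genes were chosen, nothing is read from these counts.

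The levels were also summed over the subunit genes, which stand for part of the complex and differ in direction among themselves. The 9 genes other than *Smarcd3* together had 458, 369 and 383 CPM in the injured libraries and 370, 463 and 413 CPM in the uninjured libraries, which overlapped. Their summed counts gave 403 CPM (355 to 456) in the injured and 415 CPM (351 to 489) in the uninjured group, a ratio of 0.971 (0.789 to 1.2). With *Smarcd3* included the levels were 416 CPM (367 to 469) in the injured and 582 CPM (504 to 667) in the uninjured group, a ratio of 0.715 (0.593 to 0.863). This lower ratio comes from adding the counts on which *Smarcd3* was selected, and is no separate evidence.

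The genes whose counts resembled *Smarcd3* most were sought by the distance of log2 CPM over the 6 libraries, with 0.5 added to each count. The nearest of the 16975 other identifiers was ENSMUSG00000103217, at a distance of 1.71 log2 units, with 0, 3 and 2 counts in the injured libraries and 12, 9 and 10 counts in the uninjured libraries. The next was ENSMUSG00000012114, at 2.22 log2 units, with 1, 5 and 3 counts in the injured libraries and 11, 9 and 11 counts in the uninjured libraries. Both had 88.8 CPM in the uninjured group, below the 166 CPM of *Smarcd3*, and are given by identifier because none of the tables used here pairs them with a symbol. The nearest subunit gene was *Smarcd2*, at rank 838 and a distance of 5.05 log2 units.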

How the data were processed

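LARP1 was immunoprecipitated from DRG lysate and the RNA was sequenced with a nanopore cDNA-PCR barcoding kit, per the labels' protocols. The authors deposited estimated counts, all whole numbers, for each Ensembl identifier; minimap2, Salmon and the build GRCm39 (mm39) are named per the submitters' processing notes, while versions, filters and annotation are not stated there. All 6 columns were used and matched to samples by library name. CPM used column totals. Ratios came from summed counts, with 95% exact intervals; 3 counts are the floor for 0. A minimum of 10 counts in total was set for comparisons with all genes. edgeR 4.0.16 (R 4.3.3; TMM, filterByExpr, quasi-likelihood test) ran on all genes, and the scripts were tested on simulated data; DESeq2 1.42.0 was an alternative. The replicate numbers were not taken as pairs. The correlation between libraries with the same number, in their deviations from group means, was 0.03, 9.85e-05 and -0.05 (2976 genes). These values cannot decide whether the numbers are pairs, because libraries of a group varied little beyond counting noise.

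The genes named were the 10 subunit genes and the 2 genes nearest to *Smarcd3*; members and lists were chosen with earlier results of these data known. Symbols of the 10 genes come from the list that defined them. The reference table paired 0 of 16976 identifiers with a symbol, so 18 other SWI/SNF genes and 28 cell type markers, among them those of sensory neurons, were not analysed here, and the labelled tissue was not checked against its markers. Start windows are from RefSeq, GRCm38.p6, and 9 of the 10 genes were matched by symbol.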

Additional observations from a re-analysis of the deposited data

How the results depend on the processing

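The ratios of the 9 subunit genes were recomputed under 12 alternatives each. These were TMM and DESeq2 scaling, mean library CPM, thinned injured libraries and leaving out each library. The others were edgeR's fitted values without the filter on low counts, with and without the replicate block. All 108 values stayed within the counting interval of the main value, a weak check because the alternatives reuse the same counts and the intervals are wide. Whether the interval excluded 1 changed with the setting for *Smarcd1*, *Smarcd2*, *Smarca2*, *Smarcc1* and *Smarcc2*. Of the 108 values, 1 changed sign: the log2 ratio of *Arid1a*, -0.54, was 0.05 without the first injured library, which had 0 counts. For *Smarcd3* the log2 ratio of -3.72 ranged from -4.55 to -3.13 when 1 library was left out, and was -3.53 with injured libraries thinned. In edgeR's fit without the filter on low counts it was -3.60, and -3.59 with the replicate block added. In the filtered fit that gave the calls it was -3.71. TMM factors applied to full totals lowered every log2 ratio by 0.11 relative to column totals. The sizes of edgeR's own fit, over tested genes only, gave a shift of -0.07. The *Smarcd3* share ranged from 4.29% to 13.1% in the injured and from 48.5% to 59.4% in the uninjured group when 1 library was left out. Over all genes, edgeR called 786 higher and 699 lower; the replicate block gave 750 and 677, DESeq2 774 and 584, library totals without TMM factors 927 and 610, no filter on low counts 948 and 582, and leaving out 1 library 638 to 836 and 582 to 756. The recomputed shares of *Smarca2* and *Smarcc1* were added after seeing the data. Depth limits the precision: 3 counts are 4.73 CPM in the summed injured and 8.60 CPM in the summed uninjured group.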
